A study of Mus musculus with 24 samples.

Results

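The macrophage genes described here were *Cd68*, *Adgre1*, *Csf1r*, *Cd163*, *Mrc1*, *Lyz2*, *C1qa*, *C1qb*, *C1qc* and *Fcgr1*, 10 of the 54532 genes listed in each of 24 count tables. They were chosen by name, as the rows whose Ensembl identifier bears one of these symbols in GENCODE M21. All 10 were found, and all 10 passed the filter on low counts in each of the 4 tissues. Each table held RNA-Seq read counts of one sample of heart, stomach, muscle or tongue from a *Trex1*-KO mouse. TREX1 is a DNA exonuclease, and without it cytosolic DNA accumulates and drives the cGAS-STING pathway. Each tissue had 3 control samples and 3 samples from mice given SN-011, an antagonist of STING, which makes 8 groups of 3. Mice of all groups carried the knockout in every cell, and wild-type tissue was not analysed here. The labels give SN-011 at 5 mg/kg, 3 times a week for a duration of 4 weeks, and the controls as untreated. The methods of the study instead describe mice of 1 month of age that were injected intraperitoneally with a higher dose every day over a shorter course, or with vehicle, and the groups hold the same samples under both. Nothing in the labels says that the 3 samples of a group came from separate animals, so the p-values measure the spread between these samples, which may be technical in part. The comparisons address how much macrophage RNA each tissue held and whether it differed after SN-011. Without wild-type tissue, RNA of infiltrating macrophages cannot be told apart from that of macrophages each tissue normally holds.

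Macrophages settle in almost every organ, where they clear dead cells and debris, and they are joined by monocytes from the blood during inflammation. They survive through the receptor CSF1R, which binds the growth factors CSF1 and IL-34, and their identity depends on the transcription factor PU.1, the product of *Spi1*. Type I IFN, a main output of STING signaling, acts on macrophages and raises some of their surface proteins, among them the high-affinity IgG receptor encoded by *Fcgr1*. In a sample of whole tissue, fewer macrophages and less RNA per macrophage cannot be told apart.

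*C1qa*, *C1qb* and *C1qc*, which encode the chains of the complement recognition protein C1q, lie side by side on chromosome 4 of GRCm38, from 136880129 at the end of *C1qb* to 136898803 at the start of *C1qa*, all on the minus strand. The other 7 genes lie on 7 other chromosomes. The RefSeq table of promoter sequences (GRCm38.p6) held an entry for 7 of the 10 genes. In the 250 bases before the RefSeq start of the gene, the PU.1-type core AGGAAGT, searched on both strands, stood in 5 of these 7 (*Mrc1*, *Fcgr1*, *C1qb*, *C1qc* and *Lyz2*) and in 7.69% of the 32851 promoters of the table. The spelling GAGGAAG, which can overlap it, stood in 3 of the 7 (*Mrc1*, *Fcgr1* and *C1qc*) and in 10.6% of all. The pair of IRF half-sites of an interferon-stimulated response element stood in 0 of the 7 and in 2.98% of all. Such matches describe the letters of the window and show no binding. The windows of *Fcgr1*, *Mrc1* and *C1qb* are shown because *Fcgr1* is a known target of type I IFN, *Mrc1* had SN-011 libraries all above the controls in the heart, and *C1qb* had the smallest p in the muscle. Capitals mark every match to these 3 spellings on either strand.
Fcgr1 (chr3:96293970-96294219, minus strand): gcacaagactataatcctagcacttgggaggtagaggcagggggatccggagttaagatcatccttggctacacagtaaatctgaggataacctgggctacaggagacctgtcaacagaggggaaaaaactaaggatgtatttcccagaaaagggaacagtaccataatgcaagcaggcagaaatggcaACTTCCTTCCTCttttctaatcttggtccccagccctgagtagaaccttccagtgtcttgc
Mrc1 (chr2:14229164-14229413, plus strand): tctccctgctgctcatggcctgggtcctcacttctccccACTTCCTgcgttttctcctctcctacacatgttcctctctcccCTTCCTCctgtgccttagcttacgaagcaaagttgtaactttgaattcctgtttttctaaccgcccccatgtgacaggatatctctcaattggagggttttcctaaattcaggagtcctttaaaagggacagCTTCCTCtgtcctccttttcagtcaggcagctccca
C1qb (chr4:136886201-136886450, minus strand): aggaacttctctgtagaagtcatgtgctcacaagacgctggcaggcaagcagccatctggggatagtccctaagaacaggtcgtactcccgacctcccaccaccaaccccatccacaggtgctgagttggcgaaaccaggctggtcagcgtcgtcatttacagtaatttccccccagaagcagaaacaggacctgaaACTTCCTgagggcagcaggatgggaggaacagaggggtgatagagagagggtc
In the *Fcgr1* window the PU.1-type matches, which overlap, begin 61 and 56 bases before the start. In the *Mrc1* window the PU.1-type matches begin 211, 168 and 36 bases before the start, and in the *C1qb* window the only match begins 53 bases before it.

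Library totals were 14253416 to 18443329 counts, and 3 counts, taken as the lowest level that can be shown, equal 0.163 to 0.210 CPM (counts scaled by library size) with the library total as the size, which covers counting error only. All other CPM are also scaled by TMM factors, taken over all 24 libraries for the tissue markers that follow. The libraries matched their labelled tissue by defining markers, which summed to 26166 to 43563 CPM for heart markers in the heart, 211270.0 to 267800.0 CPM for skeletal muscle markers in the muscle, 18582 to 132216 CPM for stomach markers in the stomach and 11277 to 52264 CPM for tongue epithelium markers in the tongue. In each tissue, control replicate 1 was the only library with *Xist*, the RNA of the inactive X chromosome (3060 to 13811 counts, against at most 20 in the others), and without Y-linked *Ddx3y* (at most 3 counts, against at least 825), so it is female and the others are male. In muscle SN-011 replicate 2, only 11546 genes had any count, while each of the other libraries had 19798 or more. Stomach markers also summed to 271 to 2749 CPM in control replicates 2 and 3 of the heart, muscle and tongue, against 6.82 to 69.6 CPM in the other 12 libraries of these tissues. *Trex1* had 0 counts in all 24 libraries, and since it overlaps *Atrip*, this is no check of the genotype.

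Among the control tissues, the heart held the most RNA of most macrophage genes. In a joint fit of all 24 libraries by edgeR's quasi-likelihood test, with a threshold of 0.05 on the adjusted p, the heart exceeded the stomach for 8 of the 10 genes, the muscle for 6 and the tongue for 4. Of all 19731 genes tested, 42.5%, 33.7% and 29.1% differed in either direction in these comparisons. The methods describe multiple tissues taken from the mice, but the labels do not say which samples share a mouse. This fit took all libraries as independent, although control replicate 1 was female in each tissue. Fits with the replicate number within each treatment as a block, shared across tissues, are given below. In the stomach 5 of the 10 genes were lower than in the tongue, against 36.9% of all genes called, and 3 were lower than in the muscle, against 51.6%. Between muscle and tongue 0 of the 10 genes were called, where 38.1% of all genes were. This last pair had 2 genes at an unadjusted p under 0.05, *Cd68* and *Csf1r*, where 9015 of 19731 genes were, and 3 of the 10 were called by DESeq2, where 42.8% of all genes were. The place of the muscle depended on the scaling between tissues. The TMM factors were 0.647 to 0.675 in the muscle controls and 0.893 to 1.39 in the stomach controls. Scaling by library size alone moved the median difference of all genes between stomach and muscle from 0.12 to 0.91 on the log2 scale. It left 0 of the 10 genes called in that pair, against 58.8% of all genes, and turned *Cd68*, *Csf1r*, *Lyz2* and *C1qb* to 0.61, 0.42, 0.24 and 0.0585, higher in the stomach. Between muscle and tongue it gave 6 called genes, against 46.9% of all. Levels below are reads per kilobase of exon scaled for depth (RPKM), as mean ± SD of 3 control libraries, and differences are on the log2 scale.

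**Figure D1:**
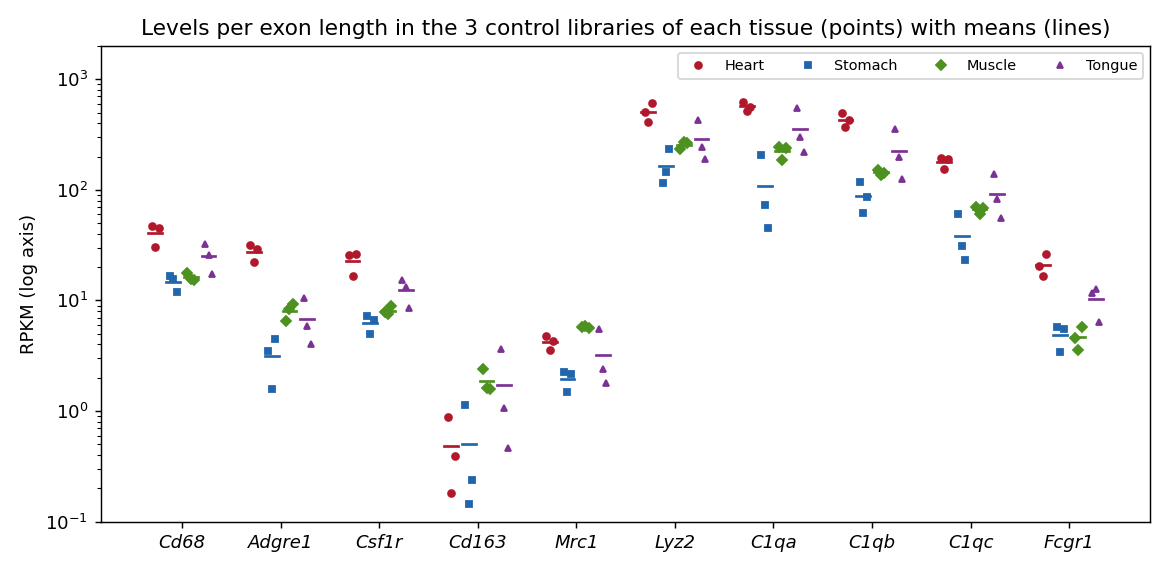
Level of each macrophage gene per kilobase of exon (RPKM, log axis) in the 3 control libraries of each tissue, drawn as points, with the mean as a line. For 8 of the 10 genes the heart has the highest mean, and for *Cd163* and *Mrc1* the muscle does.

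*Csf1r*, the growth factor receptor on which macrophages depend, was at 22.8 ± 5.43 RPKM (SD, n = 3) in the heart, 12.4 ± 3.47 in the tongue, 8.06 ± 0.676 in the muscle and 6.27 ± 1.17 in the stomach. It was higher in the heart than in the stomach by 1.86 on the log2 scale (SE 0.29, adjusted p = 3.06e-05), than in the muscle by 1.499 on the log2 scale (SE 0.29, adjusted p = 0.000373) and than in the tongue by 0.88 on the log2 scale (SE 0.28, adjusted p = 0.023). Muscle and tongue, neighbours in this order, did not differ beyond their spread (adjusted p = 0.0881), nor did stomach and muscle (adjusted p = 0.294). *Adgre1*, which encodes the surface protein F4/80, stood at 27.7 ± 4.76 RPKM in the heart, 8.09 ± 1.44 in the muscle, 6.85 ± 3.36 in the tongue and 3.17 ± 1.46 in the stomach. Its difference between heart and stomach was the largest of the 10 genes, 3.12 on the log2 scale (SE 0.72, adjusted p = 0.00154), whereas that between heart and muscle missed the threshold, at 1.77 on the log2 scale (SE 0.68, adjusted p = 0.0507). Muscle and tongue, and tongue and stomach, did not differ beyond their spread. *Fcgr1* was at 21.0 ± 4.71 RPKM in the heart and 10.3 ± 3.38 in the tongue, which did not differ beyond the spread (adjusted p = 0.239). Its levels in the stomach, 4.87 ± 1.28, and in the muscle, 4.63 ± 1.13, were both lower than in the heart (adjusted p = 0.0127 and 0.0139).

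The C1q chains and the lysozyme gene *Lyz2* were the most abundant of the 10 per length in every control tissue. *C1qa* stood at 568 ± 52.5 RPKM in the heart, 355 ± 171 in the tongue, 223 ± 33.3 in the muscle and 109 ± 87.3 in the stomach. *C1qb* and *C1qc* had the same order of means, from 432 ± 64.7 and 179 ± 21.2 RPKM in the heart down to 88.7 ± 28.8 and 38.3 ± 19.9 in the stomach. All 3 chains were higher in the heart than in the stomach, by 2.23 to 2.38, and all 3 were higher in the tongue than in the stomach, by 1.26 to 1.71. *Lyz2*, which encodes the lysozyme of myeloid cells, was at 510.1 ± 98.1 RPKM in the heart, 287 ± 124 in the tongue, 256 ± 20.9 in the muscle and 165 ± 62.7 in the stomach. Heart and stomach, the ends of this order, differed by 1.62 on the log2 scale (SE 0.41, adjusted p = 0.00304), and no other pair passed the threshold. Of the 1267 stretches of 50 bases in the *Lyz2* transcript, 195 are also in that of its neighbour *Lyz1*. Reads that lie wholly in shared sequence could be dropped or counted for either gene, though the reads of the study were longer than these stretches. *Lyz1* stood at 0.820 to 23.6 CPM in the 24 libraries against 124 to 895 CPM for *Lyz2*. *Cd68*, a glycoprotein of the macrophage lysosome, was at 41.1 ± 9.32 RPKM in the heart, 25.0 ± 7.52 in the tongue, 16.3 ± 1.396 in the muscle and 14.7 ± 2.50 in the stomach, and the heart exceeded the muscle by 1.34 on the log2 scale (SE 0.28, adjusted p = 0.00103) but not the tongue (adjusted p = 0.0593), a comparison that passed with the replicate number as a block (adjusted p = 0.0359).

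*Cd163* and *Mrc1*, receptors for haemoglobin bound to haptoglobin and for mannose-bearing glycoproteins that are typical of resident macrophages, did not have their highest mean in the heart. *Cd163* stood at 1.87 ± 0.451 RPKM in the muscle, 1.72 ± 1.68 in the tongue, 0.507 ± 0.551 in the stomach and 0.486 ± 0.359 in the heart. Its level in the heart was below that in the muscle by 1.93 on the log2 scale (SE 0.77, adjusted p = 0.0587), which missed the threshold and passed it with the replicate number as a block (adjusted p = 0.00948). *Mrc1* stood at 4.19 ± 0.610 RPKM in the heart, 5.78 ± 0.112 in the muscle, 3.24 ± 2.00 in the tongue and 1.97 ± 0.414 in the stomach. It was lower in the stomach than in the muscle by 1.56 on the log2 scale (SE 0.45, adjusted p = 0.0064), and heart and muscle did not differ beyond the spread (adjusted p = 0.447).

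These counts rested on single libraries in part. The comparison of heart and tongue gave 4 genes with all libraries, 1 without heart control replicate 1 (*Cd163*, lower in the heart), 0 without heart control replicate 3, 1 without tongue control replicate 2, 1 without tongue control replicate 3 and 6 without tongue control replicate 1, where 19.8% to 25.3% of all genes were called. With the replicate number as a block it gave 6, with *Cd68* and *Cd163* added, against 27.8% of all. The comparison of heart and muscle gave 4 genes without muscle control replicate 2, against 6 with it, where 25.4% of all genes were called. The comparison of stomach and tongue gave 2 genes without tongue control replicate 1, against 5 with it, where 30.2% of all genes were called. The comparison of stomach and muscle gave 5 genes without stomach control replicate 1 (48.3% of all genes called), and 1 without stomach control replicate 2, stomach control replicate 3, muscle control replicate 1 or muscle control replicate 3 (43.6% to 47.6% of all), against 3 with all libraries. It gave 5 with the replicate number as a block (50.1% of all). Muscle and tongue gave 1 gene without tongue control replicate 1 and 3 without tongue control replicate 3, against 0 with all libraries, where 34.6% and 30.4% of all genes were called. Without the female libraries and the muscle library with few genes, a choice made after seeing the data, the heart exceeded the stomach for 8 genes and the tongue for 7, and it differed from the muscle for 8, of which *Cd163* was lower in the heart, where 47.0%, 36.2% and 39.2% of all genes were called. In the SN-011 samples the heart differed in either direction from the stomach for 9 genes, from the muscle for 8 and from the tongue for 4, against 40.6%, 39.2% and 32.6% of all. There *Cd163* was lower in the heart, with log2 differences of −2.44 from the stomach and −2.99 from the muscle.

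After SN-011, 0 of the 10 genes passed an adjusted p of 0.05 in any of the 4 tissues, each fitted alone by edgeR's quasi-likelihood test. Of all genes tested, 0.848% were called for the heart, 0.0141% for the muscle and 0% for the stomach and the tongue. edgeR's exact test also called 0 of the 10 in each tissue, against 5.68%, 10.8%, 3.37% and 1.53% of all genes (heart, stomach, muscle, tongue). DESeq2 called 1, *C1qb* in the muscle, against 8.38%, 14.03%, 6.198% and 2.42% of all. At an unadjusted p under 0.05, heart samples had 1 gene higher and 1 lower, stomach samples had 2 higher, muscle samples had 3 higher and tongue samples had none in either direction. The shares of all genes higher at that level were 10.8%, 13.2%, 8.96% and 5.17% for heart, stomach, muscle and tongue, and those lower were 11.6%, 11.4%, 5.8% and 7.33%. The groups stood apart, with every SN-011 library above every control, for 1 gene in the heart and 3 in the muscle, and for none in either direction elsewhere. The shares of all genes that stood apart upward were 14.1%, 17.8%, 14.7% and 9.4% in the same order of tissues, and downward 13.1%, 15.2%, 19.8% and 8.38%. The median log2 fold change over the 10 genes was −0.10, 0.28, 0.28 and −0.13, beside −0.01, 0.00, −0.08 and −0.01 over all genes tested. The CPM of single libraries below are scaled within each tissue.

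**Figure D2:**
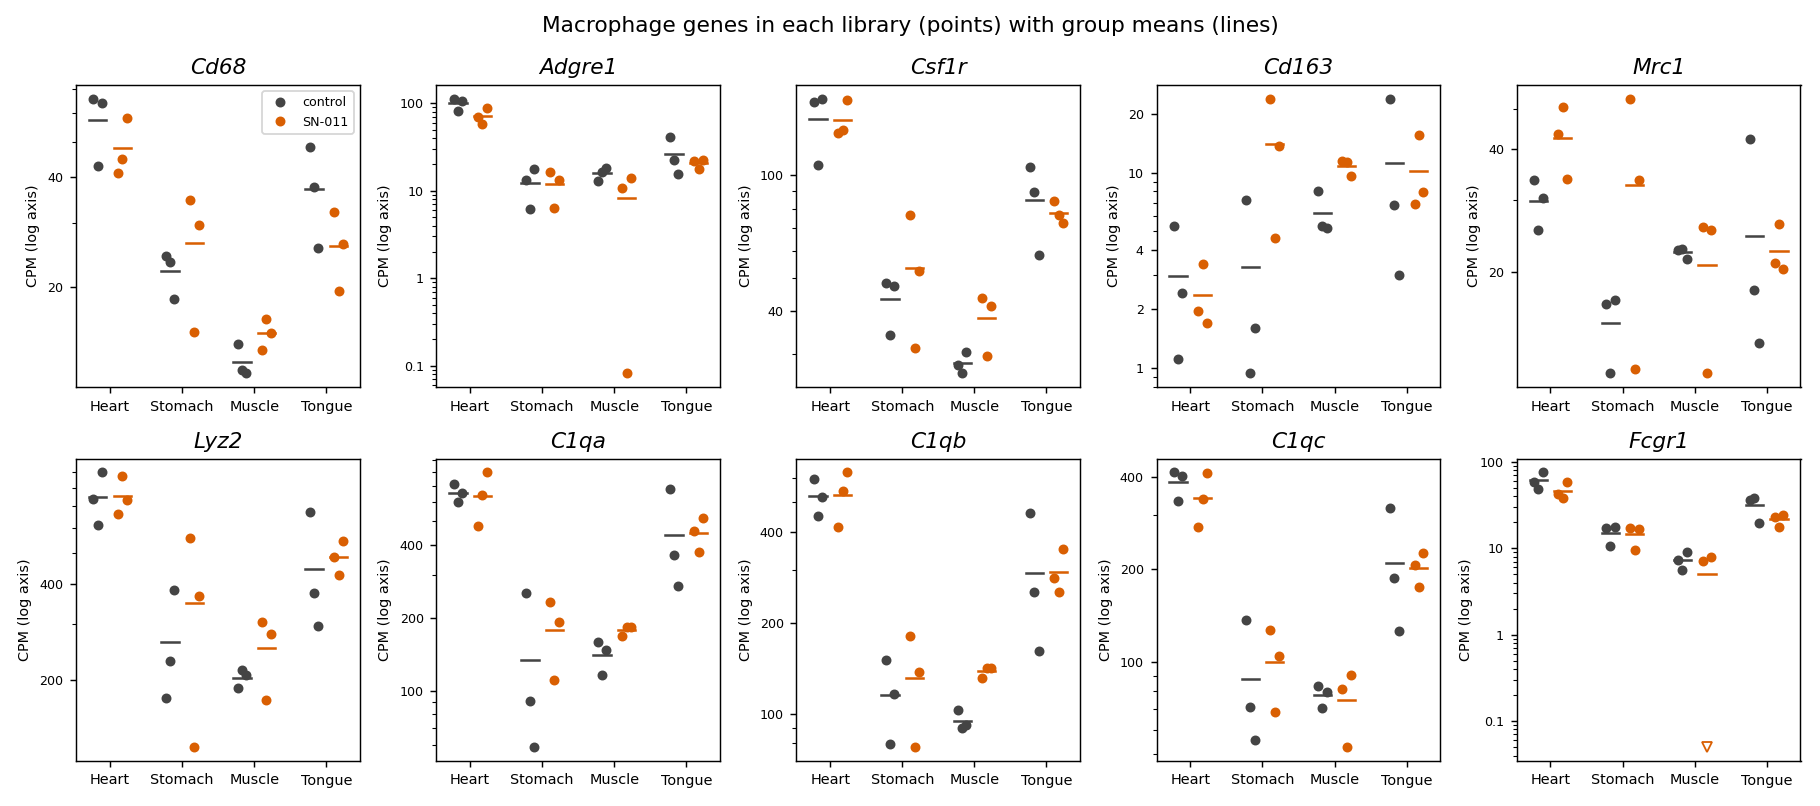
CPM of each macrophage gene (log axes, which differ between panels) in the control (grey) and SN-011 (orange) libraries of each tissue, with group means as lines. The open triangle marks the muscle SN-011 library with 0 counts of *Fcgr1*, and the lowest point of *Adgre1* is the same library, at 0.0816 CPM.

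In the heart, *Adgre1* and *Mrc1* had the smallest p of the 10 genes, in opposite directions. *Adgre1* was at 113, 81.3 and 106 CPM in the controls and at 69.9, 58.1 and 87.4 CPM after SN-011. The groups overlapped, as 1 SN-011 library lay above the lowest control, and the log2 fold change was −0.48 (SE 0.18, adjusted p = 0.163 by edgeR). *Mrc1* was at 33.5, 25.3 and 30.3 CPM in the controls and at 43.3, 50.4 and 33.7 CPM after SN-011. Every SN-011 library lay above every control, with a log2 fold change of 0.51 (SE 0.17, adjusted p = 0.135 by edgeR). *Fcgr1* was at 58.2, 48.7 and 75.1 CPM in the controls and at 42.1, 37.7 and 57.7 CPM after SN-011, a log2 fold change of −0.41 (SE 0.20, adjusted p = 0.265 by edgeR) with groups that overlapped. With no filter on low counts, where 6.23% of all genes were called, *Adgre1* fell by 0.50 on the log2 scale (adjusted p = 0.0233) and *Mrc1* rose by 0.49 (adjusted p = 0.0394).

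The other 7 genes of the heart had overlapping groups, and their means after SN-011 lay within 1 SD of the control mean. *Csf1r* was at 146 ± 34.1 and 145 ± 18.2 CPM (SD, n = 3) in the controls and after SN-011, with a 95% confidence interval of its log2 fold change from −0.43 to 0.40. *Lyz2* was at 748 ± 141 and 755 ± 109 CPM, with an interval from −0.39 to 0.42. Of the C1q chains, *C1qa* was at 658 ± 56.0 and 639 ± 159, *C1qb* at 524 ± 74.7 and 529.8 ± 107 and *C1qc* at 385 ± 43.0 and 343 ± 69.5 CPM. The lysosomal *Cd68* was at 57.6 ± 12.7 and 48.1 ± 9.07 CPM and *Cd163* at 2.95 ± 2.17 and 2.36 ± 0.929 CPM.

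*Csf1*, the main growth factor of tissue macrophages and the ligand of CSF1R, did change in the heart. It was at 110.5, 106 and 105 CPM in the controls and at 59.1, 48.9 and 62.1 CPM after SN-011. The groups stood well apart, and *Csf1* fell by 0.92 on the log2 scale (SE 0.12, adjusted p = 0.0231 by edgeR). The log2 fold change was −1.07 to −0.82 over 14 alternative fits, and the adjusted p stayed under 0.05 in 10 of them. It was 0.13, 0.157 and 0.0651 without SN-011 replicate 1, 2 or 3 of the heart, and 0.317 in the joint fit of all tissues. In the other tissues the difference was upward in the stomach and downward in the muscle and tongue. In the stomach *Csf1* was at 13.2, 17.4 and 13.1 CPM in the controls and at 31.7, 13.98 and 26.6 CPM after SN-011 (log2 fold change 0.72, adjusted p = 0.23 by edgeR), and in the muscle at 18.4, 20.2 and 19.97 CPM in the controls and at 13.1, 21.0 and 12.5 CPM after SN-011. In the tongue *Csf1* was at 38.2, 41.2 and 41.2 CPM in the controls and at 31.5, 21.0 and 21.8 CPM after SN-011, which missed the threshold (adjusted p = 0.281 by edgeR). The other ligand of the receptor, *Il34*, was at 11.8, 10.3 and 11.6 CPM in the controls and at 6.92, 11.2 and 11.5 CPM after SN-011 in the heart.

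In the stomach, *Cd163* and *Mrc1* had the largest differences. *Cd163* was at 7.26, 0.935 and 1.60 CPM in the controls and at 23.9, 4.62 and 13.7 CPM after SN-011. SN-011 replicate 2 lay within the range of the controls, and the log2 fold change was 2.13 (SE 0.84, adjusted p = 0.169 by edgeR). With no filter on low counts, where 4.98% of all genes were called, *Cd163* rose (log2 fold change 2.12, adjusted p = 0.0387). *Mrc1* was at 16.7, 11.3 and 17.1 CPM in the controls and at 52.9, 11.6 and 33.5 CPM after SN-011, a log2 fold change of 1.12 (SE 0.49, adjusted p = 0.202 by edgeR). SN-011 replicate 2 had the lowest level of its group for all 10 genes, and every one of the 10 had overlapping groups. *Csf1r* was at 43.4 ± 7.98 and 53.5 ± 22.7 CPM (SD, n = 3) in the controls and after SN-011, *Lyz2* at 263 ± 108 and 349 ± 218, *Cd68* at 22.1 ± 3.15 and 26.4 ± 10.2 and *Fcgr1* at 15.1 ± 4.03 and 14.4 ± 4.25. The 95% confidence interval of the log2 fold change ran from −1.13 to 1.06 for *Adgre1* and from −0.82 to 1.64 for *Lyz2*. The C1q chains were at 134 ± 104 and 179 ± 62.4 CPM for *C1qa*, 115 ± 35.5 and 132 ± 51.6 for *C1qb* and 87.8 ± 43.3 and 99.8 ± 29.1 for *C1qc*. Stomach control replicate 3 had a *C1qa* count 0.502 times its *C1qb* count, whereas that ratio lay between 1.14 and 1.68 in the other 23 libraries. The median over the 10 genes was −0.03 without SN-011 replicate 1 and 0.54 without SN-011 replicate 2. Squamous epithelium markers, listed here for the tongue, also moved with treatment in the stomach, where they summed to 133 to 313 CPM in the controls and 587 to 1681 CPM after SN-011, with 7 of 7 above 0, 0 called and none of the 7 at 0 counts. Their part in the values of the macrophage genes was not tested.

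In the muscle, *C1qb* had the smallest p of the 10 genes in any tissue. It was at 103, 90.0 and 92.1 CPM in the controls and at 132, 142 and 142 CPM after SN-011. All SN-011 libraries lay above all controls, with a log2 fold change of 0.54 (SE 0.11, adjusted p = 0.132 by edgeR). DESeq2, which called 6.198% of all genes, called it higher (adjusted p = 0.00024). *C1qa* was at 158, 116 and 148 CPM in the controls and at 168, 183 and 184 CPM after SN-011, and its log2 fold change was 0.34 (SE 0.14, adjusted p = 0.343 by edgeR). *Cd163* was at 8.07, 5.32 and 5.19 CPM in the controls and at 11.5, 11.3 and 9.58 CPM after SN-011, and its log2 fold change was 0.80 (SE 0.28, adjusted p = 0.284 by edgeR). These groups did not overlap either. *C1qc*, the remaining chain, was at 77.8 ± 6.72 and 74.9 ± 19.9 CPM (SD, n = 3) in the controls and after SN-011, with a log2 fold change of −0.05 (SE 0.21, adjusted p = 0.913 by edgeR). *Csf1r* was at 27.9, 26.3 and 30.3 CPM in the controls and at 43.7, 29.6 and 41.3 CPM after SN-011, with overlapping groups and a log2 fold change of 0.44 (SE 0.18, adjusted p = 0.333 by edgeR). *Lyz2* was at 204 ± 13.5 and 252 ± 69.9 CPM, *Cd68* at 12.4 ± 1.32 and 14.9 ± 1.44 and *Mrc1* at 22.3 ± 0.656 and 20.8 ± 8.21, with overlapping groups.

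Muscle SN-011 replicate 2, the library with counts on few genes, set several of these values. It had 1 count of *Adgre1*, against 165 and 246 in the other SN-011 libraries, and 0 of *Fcgr1*, against 109 and 140, where a count of 0 allows up to 0.245 CPM on the scale of the muscle values. It also had the lowest *Csf1r*, *Lyz2*, *Mrc1* and *C1qc* and the highest *Cd68* of its group, and its *C1qc* count was 0.369 times its *C1qb* count, against 0.475 to 0.911 in the other 23 libraries. Without it, where 7.40% of all genes were called, *C1qb* (log2 fold change 0.52), *Lyz2* (0.52) and *Csf1r* (0.59) rose, with adjusted p = 0.042, 0.0429 and 0.034 by edgeR. Without it the log2 fold change was −0.36 for *Adgre1* and 0.05 for *Fcgr1*, against −0.93 and −0.53 with it. Without it and the female control, a choice made after seeing the data that leaves 2 libraries a group, *C1qb* (0.58), *Cd163* (1.00), *Lyz2* (0.46) and *Csf1r* (0.58) rose and *Adgre1* fell (−0.48, adjusted p = 0.047 by edgeR), where 30.2% of all genes were called.

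In the tongue, all 10 genes had overlapping groups. *Fcgr1* was at 36.3, 38.5 and 19.6 CPM in the controls and at 23.1, 17.6 and 24.5 CPM after SN-011, with a log2 fold change of −0.53 (SE 0.27, adjusted p = 0.451 by edgeR). *Cd68* was at 48.5, 37.6 and 25.6 CPM in the controls and at 32.2, 19.4 and 26.3 CPM after SN-011, with a log2 fold change of −0.52 (SE 0.28, adjusted p = 0.459 by edgeR). Control replicate 1, the female library, had the highest level of its group for 9 of the 10 genes, *Fcgr1* being the exception. Its *C1qb*, at 462 CPM, stood above the 253 and 161 CPM of the other controls and the 252 to 349.8 CPM of the SN-011 libraries. *Cd163* was at 23.7, 6.80 and 3.00 CPM in the controls and at 6.86, 15.7 and 7.91 CPM after SN-011, and *Mrc1* at 42.1, 18.1 and 13.4 CPM in the controls and at 21.0, 26.1 and 20.4 CPM after SN-011. The median log2 fold change of the 10 genes was −0.13 with control replicate 1 and 0.44 without it, and 0 of the 10 were called either way, against 0% and 12.5% of all genes. *Adgre1* was at 26.3 ± 13.2 and 20.8 ± 2.66 CPM (SD, n = 3) in the controls and after SN-011, *Csf1r* at 84.8 ± 24.1 and 77.7 ± 5.88, *Lyz2* at 447 ± 198 and 486 ± 59.9, *C1qa* at 438 ± 215 and 449.6 ± 70.9 and *C1qc* at 210.4 ± 98.4 and 203 ± 25.9.

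**Figure D3:**
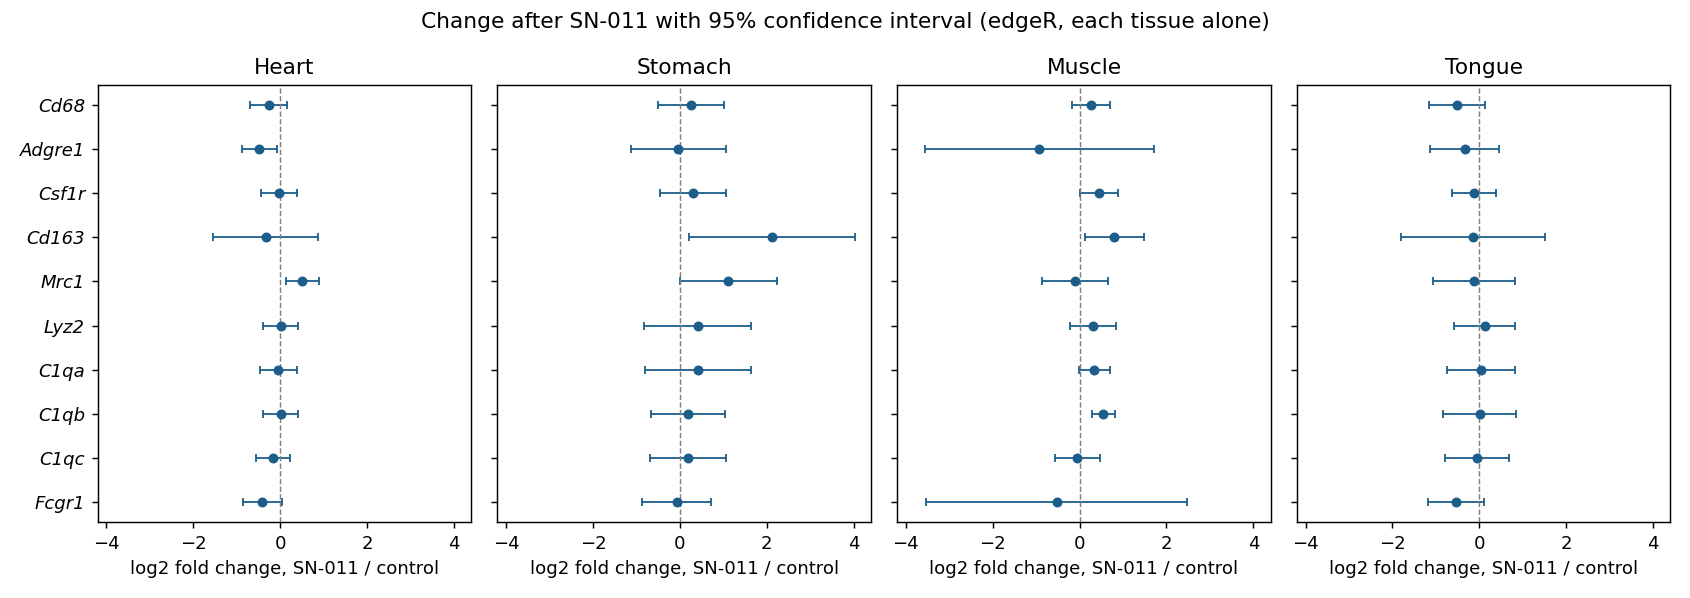
Log2 fold change of each macrophage gene after SN-011 in each tissue, with its 95% confidence interval from edgeR. Most intervals cross 0, those of muscle *Adgre1* and *Fcgr1* are the widest, and 0 of the 10 genes passed the adjusted threshold in any tissue.

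No gene of the 10 was called as differing between tissues in its change after SN-011. In the joint fit by edgeR, 0 of the 10 passed an adjusted p of 0.05 in any of the 6 pairs of tissues. Of all genes, 2.01%, 0.00507% and 0% did where the heart was set against stomach, muscle and tongue, 6.95% and 0.821% where the stomach was set against muscle and tongue, and 0.0355% between muscle and tongue. At an unadjusted p under 0.05 there was 1 of the 10, *Cd163*, whose change in the heart was below that in the stomach by 2.41 on the log2 scale (SE 1.08, adjusted p = 0.261). It was called in that pair, as the only gene of the 10, without the female libraries and the muscle library with few genes, where 8.27% of all genes were. For *Mrc1* the change in the stomach exceeded that in the muscle by 1.23 (SE 0.62, adjusted p = 0.231). The pairs share samples, since each tissue enters 3 of them.

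Within a library, the ratio of one macrophage gene to another does not depend on the scaling of libraries. On the log2 scale, the ratio of *Mrc1* to *Adgre1* in the heart was −1.75, −1.68 and −1.80 in the controls and −0.69, −0.20 and −1.38 after SN-011. Every SN-011 library lay above every control, and the means differed by 0.99. The exact two-sided permutation test gave p = 0.1, the smallest that 20 relabellings of 3 and 3 samples allow, and p = 0.3 after adjustment over the 12 ratios tested. In the stomach the same ratio differed by 0.90 with overlapping groups (exact p = 0.2), and in the tongue by 0.27 (exact p = 0.4). The ratio of *Cd163* to *Adgre1* in the stomach was −0.85, −2.67 and −3.45 in the controls and 0.54, −0.47 and 0.05 after SN-011. These groups did not overlap either (difference 2.36, exact p = 0.1, adjusted p = 0.3). In the muscle the *Mrc1* and *Cd163* ratios differed by 2.38 and 3.40, both with no overlap, and by 0.55 and 1.15 without the library with few genes. With *Cd68* in place of *Adgre1*, the *Mrc1* difference of the muscle turned to −0.46. This value includes the library with few genes, which had 139 counts of *Mrc1* against 397 and 447 in the other muscle SN-011 libraries. Its *Cd68* count was 200, against 207 and 263. The ratio of *Fcgr1* to *Adgre1* differed by −0.26 to 0.14 in the 4 tissues, with overlapping groups in each. In the muscle library with few genes this ratio, −1.58, came from 0 counts of *Fcgr1* and 1 of *Adgre1*, so the added 0.5 set it. Without that library the muscle difference was 0.43.

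**Figure D4:**
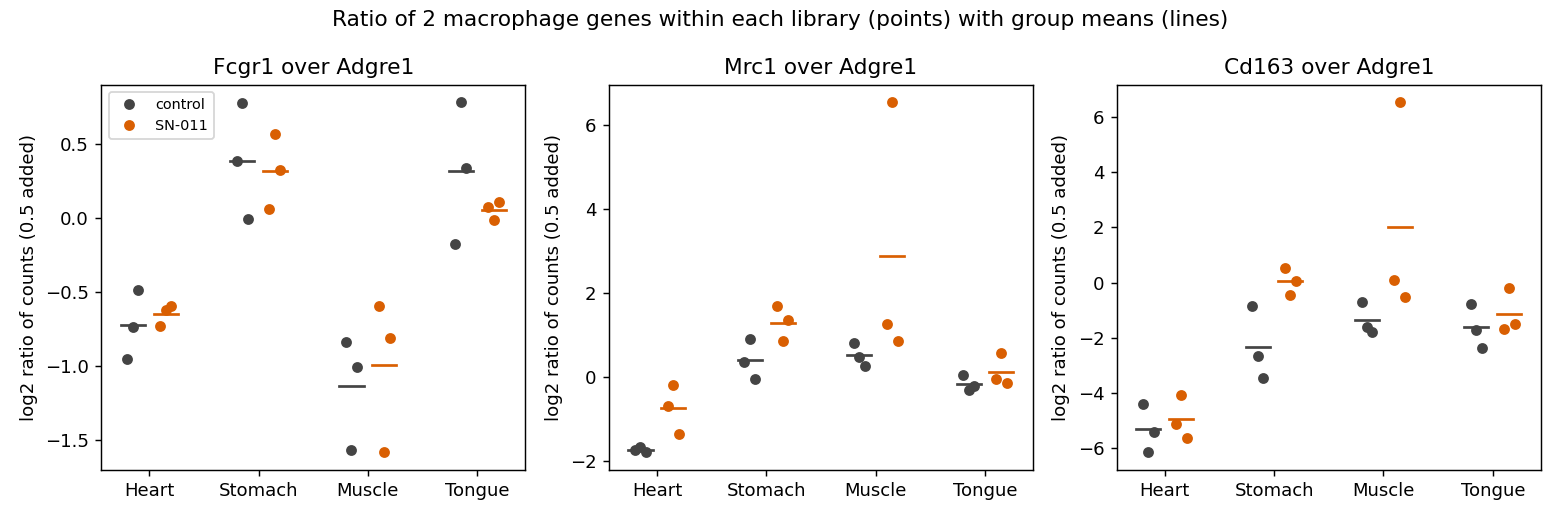
Log2 ratio of *Fcgr1*, *Mrc1* and *Cd163* counts to *Adgre1* counts (0.5 added to each) in every control (grey) and SN-011 (orange) library, with group means as lines. In the heart the *Mrc1* ratios after SN-011 lie above the controls, while the *Fcgr1* ratios overlap in each tissue.

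Other genes of macrophages and their relatives were counted over lists, by log2 fold change and with edgeR's adjusted p. Of 17 other macrophage genes, 14 were below 0 in the heart, with 0 called, and the median was −0.23, 0.13, 0.05 and −0.18 (heart, stomach, muscle, tongue). Those with the largest differences in the heart were the fungal receptor gene *Clec7a*, at 28.4 CPM ± 8.93 in the controls and 15.3 ± 2.31 after SN-011 (log2 fold change −0.90, adjusted p = 0.0892 by edgeR), and the fractalkine receptor gene *Cx3cr1*, at 42.3 CPM ± 15.3 in the controls and 23.9 ± 4.81 after SN-011 (log2 fold change −0.82, adjusted p = 0.118 by edgeR). In the stomach 9 of the 16 tested were above 0 and 7 below. There the efferocytosis receptor gene *Mertk* was at 6.58 CPM ± 1.14 in the controls and 18.4 ± 7.27 after SN-011 (log2 fold change 1.48, adjusted p = 0.0832 by edgeR), while *Clec7a* was at 38.4 CPM ± 8.31 in the controls and 17.9 ± 7.91 after SN-011 (log2 fold change −1.10, adjusted p = 0.13 by edgeR). Of 12 genes of resident macrophages, 0 were called in any tissue, with medians of −0.11, 0.63, 0.39 and −0.11 (heart, stomach, muscle, tongue). In the stomach 7 of the 10 tested were above 0, led by *F13a1*, which encodes a subunit of coagulation factor XIII, at 2.39 CPM ± 0.778 in the controls and 20.7 ± 14.5 after SN-011 (log2 fold change 3.11, adjusted p = 0.0706 by edgeR). The scavenger receptor gene *Stab1* was at 19.4 CPM ± 4.21 in the controls and 87.3 ± 26.3 after SN-011 (log2 fold change 2.17, adjusted p = 0.0618 by edgeR). Of 12 genes of macrophage growth and identity (medians −0.04, 0.78, 0.10 and −0.27 (heart, stomach, muscle, tongue)), *Csf1* in the heart was the only one called in any tissue, and the PU.1 gene *Spi1* in the tongue was at 40.5 CPM ± 4.86 in the controls and 25.5 ± 4.37 after SN-011 (log2 fold change −0.67, adjusted p = 0.281 by edgeR).

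**Figure D5:**
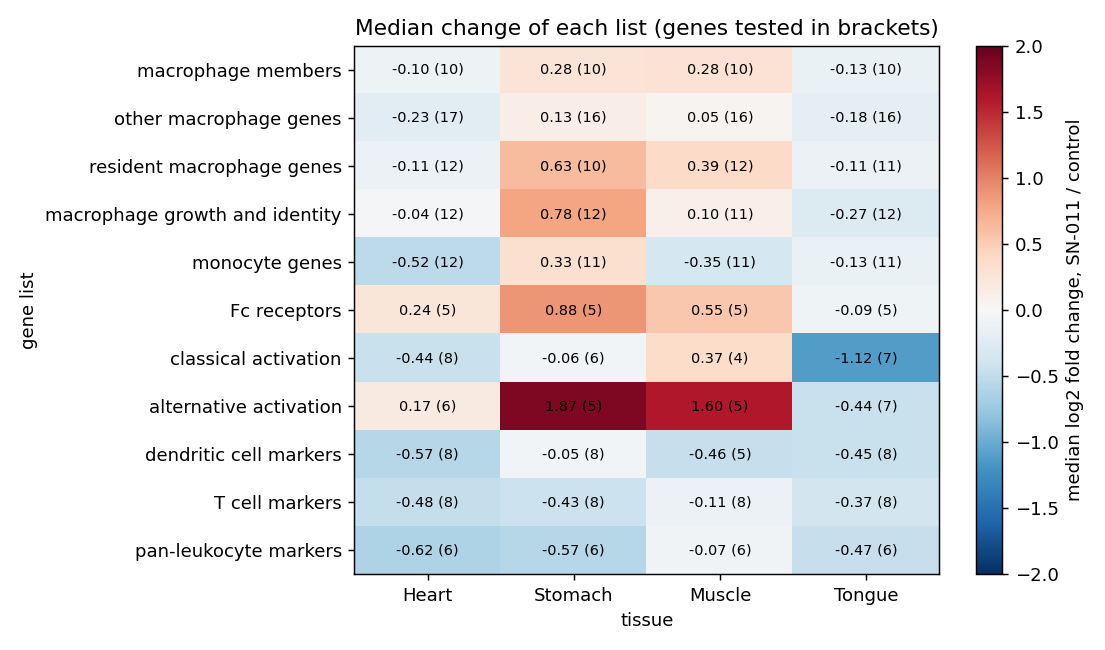
Median log2 fold change after SN-011 over the tested genes of each list (rows) in each tissue (columns), with the number of genes tested in brackets and the colour giving the same median. The median of the 10 macrophage genes is −0.13 to 0.28 over the tissues, and the list of alternative activation is at 1.87 in the stomach and 1.60 in the muscle.

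Genes of classical and alternative macrophage activation had 0 called in each tissue. Of the 8 tested genes of classical activation, 6 were below 0 in the heart, and the median was −0.44, −0.06, 0.37 and −1.12 (heart, stomach, muscle, tongue). *Nos2*, which encodes inducible nitric oxide synthase, was at 13.1 CPM ± 3.27 in the controls and 4.44 ± 1.65 after SN-011 (log2 fold change −1.56, adjusted p = 0.0546 by edgeR) in the heart. The medians of alternative activation were 0.17, 1.87, 1.60 and −0.44 (heart, stomach, muscle, tongue), with 4 of 5 tested genes above 0 in the stomach and 5 of 5 in the muscle. The stomach median was the value of *Clec10a*, which is also in the list of resident macrophages. The muscle median was that of *Chil3*, which is also in the list of monocytes. *Chil3* was at 0.625 CPM ± 0.345 in the muscle controls and 1.91 ± 1.70 after SN-011, with overlapping groups. The arginase gene *Arg1* was at 2.97 CPM ± 1.37 in the controls and 42.0 ± 30.8 after SN-011 (log2 fold change 3.81, adjusted p = 0.0648 by edgeR) in the stomach. Of 12 monocyte genes, 0 were called, with medians of −0.52, 0.33, −0.35 and −0.13 (heart, stomach, muscle, tongue). In the stomach 6 of the 11 tested were above 0 and 5 below. There *Ly6c2*, a surface marker of inflammatory monocytes, was at 53.2 CPM ± 10.8 in the controls and 13.7 ± 4.02 after SN-011 (log2 fold change −1.95, adjusted p = 0.0618 by edgeR), while the integrin gene *Itgam* was at 2.82 CPM ± 1.20 in the controls and 20.9 ± 16.6 after SN-011 (log2 fold change 2.88, adjusted p = 0.0885 by edgeR). The 5 other Fc receptor genes had 0 called and medians of 0.24, 0.88, 0.55 and −0.09 (heart, stomach, muscle, tongue). Of these, *Fcgr3*, an activating IgG receptor, was at 13.9 CPM ± 3.99 in the controls and 35.1 ± 17.5 after SN-011 (log2 fold change 1.34, adjusted p = 0.112 by edgeR) in the stomach.

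Markers of other cell types were measured beside these, and their part in the values of the macrophage genes was not tested. Pan-leukocyte markers in the heart summed to 661 to 1337 CPM in the controls and 560.3 to 691 CPM after SN-011, with 6 of 6 below 0, 0 called and none at 0 counts, and their medians were −0.62, −0.57, −0.07 and −0.47 (heart, stomach, muscle, tongue). T cell markers in the heart summed to 135 to 254 CPM in the controls and 119.8 to 176 CPM after SN-011, with 8 of 8 below 0 and medians of −0.48, −0.43, −0.11 and −0.37 (heart, stomach, muscle, tongue). B cell markers had medians of −1.27, −0.25, −1.68 and −1.24 (heart, stomach, muscle, tongue), dendritic cell markers of −0.57, −0.05, −0.46 and −0.45 (heart, stomach, muscle, tongue) and neutrophil markers of −0.27, 1.90, 0.33 and −5.10 (heart, stomach, muscle, tongue), all with 0 called. The low median of neutrophil markers in the tongue went with a range of 13.3 to 372 CPM among the controls for their sum. Fibroblast markers in the heart summed to 2449 to 3538 CPM in the controls and 1673 to 1895 CPM after SN-011, with 6 of 6 below 0, of which *Lum*, a proteoglycan of collagen matrix, fell, at 91.7 CPM ± 21.1 in the controls and 49.2 ± 0.747 after SN-011 (log2 fold change −0.90, adjusted p = 0.0481 by edgeR). That call was lost without control replicate 1 (adjusted p = 0.059) and without SN-011 replicate 1, 2 or 3 (adjusted p = 0.201, 0.235 and 0.117). The fibroblast medians were −0.77, 0.73, −1.17 and −0.36 (heart, stomach, muscle, tongue). Red blood cell markers lay above 0 for every tested gene in each tissue, with 0 called and medians of 1.07, 1.11, 1.32 and 1.47 (heart, stomach, muscle, tongue). Endothelial markers had medians of −0.09, 0.48, −0.54 and −0.26 (heart, stomach, muscle, tongue) and adipocyte markers of −0.71, 0.48, 0.77 and 0.66 (heart, stomach, muscle, tongue), with 0 called. In the heart 4 of the 5 tested adipocyte markers were below 0. Their sum still rose, from 683 to 836 CPM in the controls to 1087 to 1219 CPM after SN-011, most of it *Fabp4* (674 ± 160 and 1114 ± 109 CPM). The tongue value is that of 1 tested gene. Stomach markers, which stood higher in control replicates 2 and 3 of the heart, muscle and tongue, had medians of −4.56, −4.17 and −6.04 in these tissues, with 0 called.

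Across the 24 libraries, the 10 genes varied together to differing degrees. Pearson's r of log2 CPM over the 45 pairs had a median of 0.68 and ran from −0.40 (*Cd163* with *Fcgr1*) to 0.95 (*C1qa* with *C1qc*), over libraries that share tissue, depth and scaling. With the group means taken off, the median was 0.66 (0.20 to 0.97), the lowest again *Cd163* with *Fcgr1* and the highest *Adgre1* with *Fcgr1*, a pair that was near 0 together in the muscle library with few genes. Of 12589 genes at a mean of 1 CPM or more in every tissue, those most like the mean of the 10 over the 24 libraries were *Pld4* (r = 0.94), *C5ar1* (0.93), which encodes the receptor of complement C5a, *Aoah* (0.93), *Rin3* (0.93) and *Vsir* (0.92). With the group means taken off they were *Pmp22* (0.92), *Serping1* (0.92), which encodes the inhibitor of the proteases bound to C1q, *Col6a2* (0.92), *Hmcn2* (0.91) and *Laptm5* (0.91). All these correlations include the muscle library with few genes. Its mean log2 CPM over the 10 genes, scaled over all 24 libraries, was 4.59, against 6.01 and 6.06 in the other muscle SN-011 libraries. Its part in the correlations was not tested.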

How the data were processed

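RNA-Seq of heart, stomach, muscle and tongue from *Trex1*-KO mice was analysed from the deposited read counts per gene (54532 Ensembl genes in each of 24 samples, 3 in each of 8 groups named in the labels). The authors prepared polyA libraries, trimmed reads and aligned pairs to mm10 with HISAT2, and they deposited raw counts with no normalization. The labels name HTSeq as the counter, whereas the methods name featureCounts with uniquely mapped pairs. Whether counting used strand is not given in the sources used here, so overlapping genes on opposite strands, such as *Hmgxb3* for *Csf1r*, may share reads. Of the IDs, 54495 matched GENCODE M21 (GRCm38), which gave symbols, coordinates and exon lengths.

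Each tissue was fitted alone with edgeR 4.0.16 (quasi-likelihood test, TMM scaling, filterByExpr with a minimum count of 10, R 4.3.3), on 16151, 17031, 14198 and 16587 genes for heart, stomach, muscle and tongue. A joint fit of 8 groups on 19731 genes served the contrasts between tissues and between tissues' changes. p-values were adjusted by Benjamini-Hochberg over all genes tested, with a threshold of 0.05. Log2 ratios of counts, with 0.5 added, were compared by exact two-sided permutation tests (scipy 1.17.1). Alternatives were DESeq2 1.42.0, edgeR's exact test, other size factors and filters, the replicate number as a block, and leaving out each replicate. In the fits of single tissues the block was the number shared by control and SN-011 samples. In the joint fit it was the number within each treatment, shared across tissues. With r above 0.1 in every one of the 3 pairs taken as the rule, same-numbered controls deviated together for heart with muscle (r 0.240 to 0.524) and muscle with tongue (0.164 to 0.431). The lowest r was 0.0738 for heart with tongue, 0.0957 for heart with stomach, 0.0756 for stomach with muscle and −0.137 for stomach with tongue. In the SN-011 samples no pair of tissues met the rule. There r was 0.0661 to 0.0872 for heart with muscle and −0.0249 to 0.0237 for muscle with tongue. All 10 genes are described. Other lists are given by counts and medians, naming genes past the threshold or among the 3 with the largest change at 1 CPM or more. The 10 genes and the lists were chosen with earlier results of these data known.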

Additional observations from a re-analysis of the deposited data

How the results depend on the processing

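The alternatives run for pairs of tissues include 1 fit with the SN-011 samples in place of the controls. Over them, heart and stomach differed in either direction for 7 to 9 of the 10 genes and heart and muscle for 4 to 9. After SN-011, 0 of the 10 were called in 13 of 14 alternatives in heart and in stomach, 12 of 15 in muscle and 14 of 14 in tongue. With no filter 2 were called in the heart and 1 in the stomach. Muscle samples had 1 by DESeq2, 3 without SN-011 replicate 2, the library with few genes, and 5 without it and the female library, a choice made after seeing the data, as were the joint fits without these libraries. There *Mrc1*, *Fcgr1* and *C1qc* of the muscle turned to 0.20, 0.044 and 0.20 on the log2 scale. Scaling by library size alone, which moved the median of all genes of heart, stomach and muscle from −0.01, 0.00 and −0.08 to −0.16, 0.18 and −0.31, turned *C1qb* and *Lyz2* of the heart to −0.13 and −0.14, *Fcgr1* and *Adgre1* of the stomach to 0.13 and 0.15, and *C1qc* of the tongue to 0.00294. With no filter *C1qb* and *Lyz2* of the heart were at −0.0071 and −0.011, and with at least 10 counts in every sample *Adgre1* of the stomach was at 0.014. The replicate block turned *Csf1r* of the heart to 0.0061 and *Mrc1*, *C1qc* and *Cd163* of the tongue to 0.048, 0.038 and 0.32. It changed no call after SN-011. By the rule above, same-numbered control and SN-011 samples of a tissue did not deviate together (mean r −0.02, 0.06, 0.03 and −0.25 in heart, stomach, muscle and tongue). With 3 pairs a tissue, this check cannot tell whether they share more than a number. The cause of these changes was not tested.

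Between tissues, the genes called for stomach and muscle numbered 1 in the SN-011 samples, against 3 in the main fit of the controls. In the controls they numbered 1 with DESeq2 size factors, 0 with library size alone, 5 with the replicate block, 5 without the library with few genes and 6 without it and the female libraries. For muscle and tongue they numbered 2 with DESeq2 size factors, 6 with library size alone, 3 with at least 10 counts in every sample, 3 by DESeq2, 1 without the library with few genes and 2 without it and the female libraries, against 0. Heart and tongue gave 7 without these libraries, stomach and tongue gave 3 in the SN-011 samples, and the change after SN-011 differed between heart and stomach for 1 gene without these libraries. With *Cd68* as reference, the *Fcgr1* ratio differed by −0.16, −2.70 and 0.016 (heart, muscle, tongue), and the *Mrc1* ratio by −0.46 in muscle. Both muscle values include the library with few genes. It had 0 counts of *Fcgr1* and 200 of *Cd68*, so the added 0.5 set its *Fcgr1* ratio.

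Leaving out each replicate in turn, the log2 fold change crossed 0 in the heart for *Csf1r*, *Cd163*, *Lyz2*, *C1qa* and *C1qb*, with ranges of −0.20 to 0.086 for *Csf1r*, −0.71 to 0.39 for *Cd163*, −0.11 to 0.16 for *Lyz2*, −0.25 to 0.13 for *C1qa* and −0.14 to 0.17 for *C1qb*. In the stomach it ran from −0.36 to 0.31 for *Adgre1*, −0.044 to 0.56 for *Csf1r*, −0.096 to 0.80 for *Lyz2*, −0.093 to 0.45 for *C1qb*, −0.079 to 0.63 for *C1qc* and −0.27 to 0.14 for *Fcgr1*. In the muscle it ran from −0.28 to 0.19 for *Mrc1*, −0.21 to 0.15 for *C1qc* and −1.02 to 0.047 for *Fcgr1*. In the tongue it ran from −0.61 to 0.14 for *Adgre1*, −0.34 to 0.069 for *Csf1r*, −0.60 to 1.05 for *Cd163*, −0.42 to 0.52 for *Mrc1*, −0.11 to 0.54 for *Lyz2*, −0.22 to 0.51 for *C1qa*, −0.28 to 0.51 for *C1qb* and −0.32 to 0.37 for *C1qc*. The median over the 10 genes in the tongue ran from −0.38 to 0.44, and the genes called in the muscle numbered 0 to 3. Those called between control tissues numbered 0 to 6 for heart and tongue, 1 to 5 for stomach and muscle, 2 to 6 for stomach and tongue and 0 to 3 for muscle and tongue. The ratios to *Adgre1* crossed 0 for *Cd163* in the heart (−0.069 to 0.84) and for *Fcgr1* in the heart (−0.037 to 0.19), muscle (−0.075 to 0.43) and stomach (−0.26 to 0.13). Depth limits *Cd163*, which had 15 to 98 counts in heart and stomach controls, more than the other genes.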
